A study of Homo sapiens with 24 samples.

Results

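The genes described here are 7 human genes of cellular iron handling, chosen by their Ensembl identifiers and found in every one of the 24 count tables, among 20426 genes listed in all of them. They are the ferritin subunits FTH1 (ENSG00000167996, chr11:61964285-61967634) and FTL (ENSG00000087086, chr19:48965309-48966879), the importers TFRC (ENSG00000072274, chr3:196049284-196082090) and SLC11A2 (ENSG00000110911, chr12:50952263-51028886), the exporter SLC40A1 (ENSG00000138449, chr2:189560590-189580786), and the iron regulatory proteins ACO1 (ENSG00000122729, chr9:32384643-32454769) and IREB2 (ENSG00000136381, chr15:78437431-78501453), with gene spans from RefSeq on GRCh38.p14. The study set libraries of ribosome-protected fragments (RPF, called footprints here) against libraries of input RNA (INPUT) of the same cells. Each of 6 cultured cell populations gave 2 libraries of each kind: HCT15 colon cancer cells with the genotype COPS7B overexpression, HCT15 cells titled PLVX (called the vector line here), the colon cancer lines HCT116, HCT15 and SW620, and 841CON, labelled as cells of normal colon epithelium. Apart from the COPS7B line, all carried the genotype label WT. Before lysis all cells received cycloheximide (100 µg/mL, 10 minutes), which holds elongating ribosomes in place. HCT116 grew in RPMI-1640, HCT15 in DMEM, SW620 in L15 in an air incubator and 841CON in EMEM, so that medium and line cannot be told apart, and the labels do not say whether the vector and COPS7B lines are clones or pools.

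Iron in animal cells is held in check largely after transcription. When iron is scarce, the iron regulatory proteins IRP1 (made from ACO1) and IRP2 (made from IREB2) bind hairpins called iron-responsive elements. A hairpin near the start of the ferritin and ferroportin mRNAs then blocks ribosome loading, while hairpins behind the coding sequence of TFRC, and of one splice form of SLC11A2, protect the mRNA from decay. When iron is plentiful IRP1 holds an iron-sulfur cluster and works as a cytosolic aconitase, and IRP2 is degraded. Translational efficiency (TE), which is footprints divided by RNA for the same gene, is the readout that ferritin control of this kind acts on.

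The binding site in the FTL leader is shown because the TE of FTL is one of the main results below. RefSeq start-site windows, running from 250 bases before to 50 bases after a transcript start on GRCh38.p14, were matched for 6 of the 7 genes, FTH1 not being among them. The loop of an iron-responsive element was searched as CAGTG with a C placed 5 bases before it, in the 50 transcribed bases. FTL held it within the stretch printed here, bases 21 to 50 after the start on the plus strand (chr19:48965329-48965358), where capitals mark that C and the CAGTG of the loop.
FTL: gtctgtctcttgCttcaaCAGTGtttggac
Of 35116 such windows of the same length, 1.71% held these letters on the transcribed strand and 3.33% on either strand, and none of the windows of the other 5 matched genes did. The match is a description of letters, and the windows end before most of each leader and hold no sequence from behind the coding region.

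INPUT libraries held 1237231 to 9105954 counts in genes and RPF libraries 84262 to 4679279, with the 2 SW620 footprint libraries the shallowest. The replicate pairs differed in closeness. Across the 11938 genes that passed a filter on low counts, log2 levels of the 841CON INPUT replicates correlated at r = 0.818 and those of SW620 RPF at 0.698, while the HCT116 pairs reached 0.987 in INPUT and 0.984 in RPF. In 4 pairs, those of HCT116 in both assays and the footprint pairs of the COPS7B line and 841CON, the counts differed only a little beyond sampling noise, with a chi-square of 1.39 to 1.70 per gene. They were kept as separate replicates, and calls lost when each such pair was summed into 1 library are named below. The INPUT libraries labelled COPS7B stood apart from the other HCT15 libraries. They correlated with parental HCT15 at only 0.573 to 0.596 and with the vector line at 0.591 to 0.617, below their 0.671 to 0.679 with HCT116, whereas the vector line and parental HCT15 reached 0.883 to 0.897. In footprints the COPS7B libraries were closest to the vector line, at 0.667 to 0.699, above their 0.590 to 0.615 with parental HCT15 and 0.589 to 0.598 with HCT116. Identifiers of COPS7B itself and of epithelial and other cell-type markers could not be matched to names here, so neither these labels nor the label of 841CON were checked against their defining genes. Nothing in the labels says that replicates came from different cultures, so every p-value reflects only how far these libraries vary, possibly for technical reasons alone.

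Relative to 841CON, the cancer lines differed in the transferrin receptor, the ferritin light chain and IRP1, and SW620 also in the ferritin heavy chain. FTH1 RNA and footprints rose in SW620. TFRC RNA rose and TFRC TE fell in HCT116, HCT15 and SW620, FTL and ACO1 RNA fell in each, and FTL TE rose in HCT116 and SW620. These 3 comparisons share the 841CON libraries and are not independent of each other. In bulk libraries such as these, fewer expressing cells and less RNA per cell cannot be told apart. Levels are given as CPM, normalised counts scaled to a common library size by trimmed means within each assay, and changes as fitted log2 changes ± SE from edgeR's quasi-likelihood test, called at a Benjamini-Hochberg adjusted p under 0.05 over all genes tested. For RNA, 4 of the 7 genes passed in HCT116, where 40.1% of all genes did, with 1 higher and 3 lower beside 19% and 21% of all genes. In HCT15, 3 passed where 35.4% of all genes did, with 1 higher and 2 lower beside 16.8% and 18.6%. In SW620, 5 passed where 44.4% did, with 3 higher and 2 lower beside 21.8% and 22.6%. For footprints, 3 passed in HCT116 (59.3% of all genes), 0 higher and 3 lower beside 22.6% and 36.7%. In HCT15, 6 passed (49.9% of all genes), 1 higher and 5 lower beside 28.8% and 21.1%. The lower ones include SLC40A1, which had no footprint count in HCT15. It passed the filter on low counts through other groups, and was not fitted among the HCT15 and 841CON footprint libraries alone. Its entry into this test thus rests on libraries outside the comparison. In SW620, 4 passed (38% of all genes), 3 higher and 1 lower beside 18.6% and 19.4%. SLC40A1 was too low for a test of TE. Of the other 6 genes 3 passed for TE in HCT116 (45.6% of all genes), 1 higher and 2 lower beside 14.9% and 30.7%. In HCT15, 2 passed (16.6% of all genes), 0 higher and 2 lower beside 11.5% and 5.08%. In SW620, 3 passed (18.4% of all genes), 1 higher and 2 lower beside 8.25% and 10.1%. The share of the genes called was furthest above that of all genes for footprints in HCT15, but 5 of those 6 calls were lost without HCT15 RPF replicate 2, which left 1. No test of the group as a whole was made. The median TE change of the 6 tested genes was 0.34 in HCT116, 0.14 in HCT15 and -0.70 in SW620, beside -0.60, 0.29 and -0.31 for all genes tested.

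**Figure D1:**
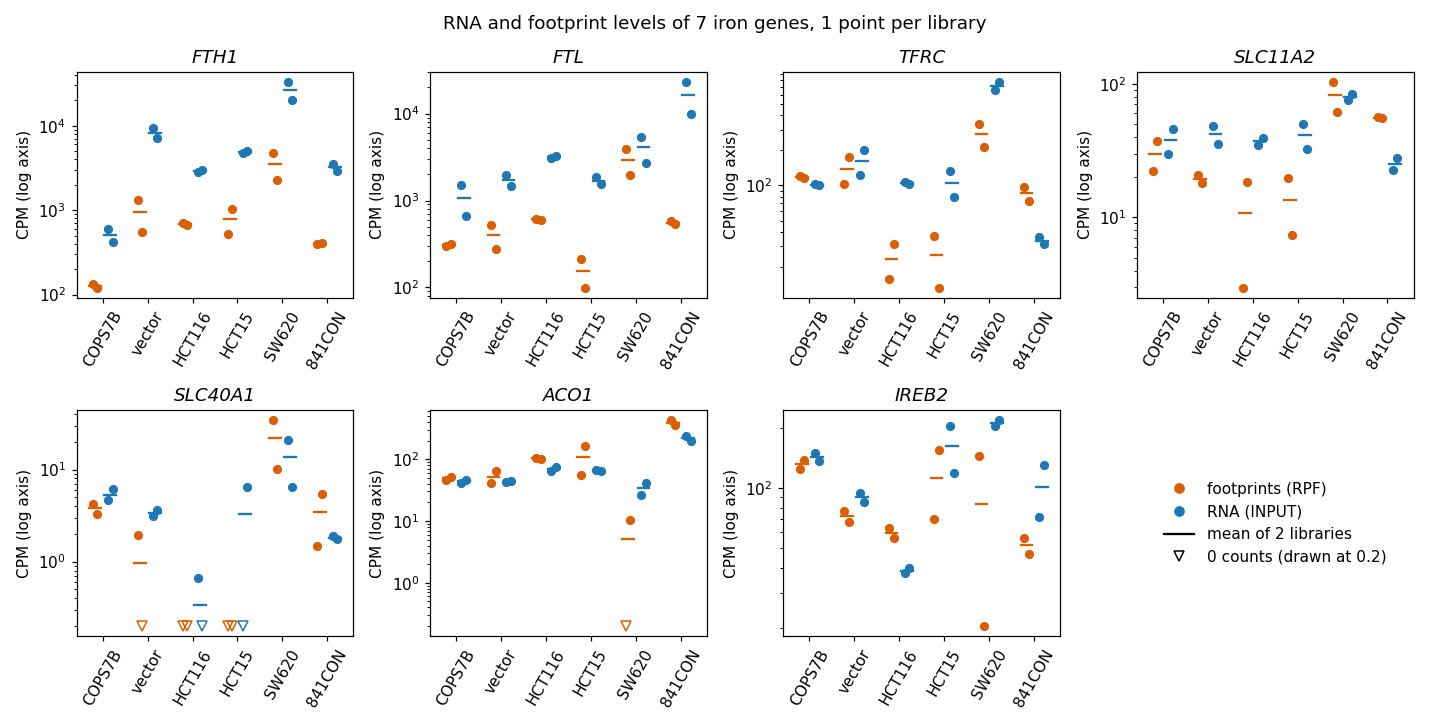
RNA (INPUT) and footprint (RPF) levels of the 7 genes in CPM on a log axis, 1 point per library, with bars at the mean of 2 libraries and open triangles for libraries with 0 counts. FTL RNA is highest in 841CON, while FTH1 and TFRC RNA are highest in SW620. Footprints of TFRC lie above its RNA in 841CON and the COPS7B line but below it in HCT116, HCT15 and SW620.

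Ferritin stores iron in a shell of heavy and light subunits, and FTH1 encodes the heavy chain, which oxidises iron for storage. FTH1 RNA stood at 2794 and 2961 CPM in HCT116, 4742 and 4958 in HCT15, 32825 and 19941 in SW620, and 3477 and 2947 in 841CON. Only the SW620 libraries lay far above the rest, and the ranges of HCT116 and 841CON overlapped. FTH1 RNA rose in SW620 by 3.04 ± 0.47 (log2, adjusted p = 5.19e-05), and in HCT116 and HCT15 the changes were -0.16 ± 0.44 and 0.59 ± 0.44 (adjusted p = 0.824 and 0.312). FTH1 footprints were 701 and 668 CPM in HCT116, 526 and 1041 in HCT15, 4790 and 2285 in SW620, and 398 and 405 in 841CON. They rose in SW620 by 3.14 ± 0.47 (adjusted p = 4.93e-05), or by 2.5 without SW620 RPF replicate 1, beside the RNA change of 3.04, and the TE change there was 0.10 ± 0.62 (adjusted p = 0.942). FTH1 TE did not pass in HCT116 (0.93 ± 0.62, adjusted p = 0.227) or HCT15 (0.37 ± 0.62, adjusted p = 0.728) either.

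FTL encodes the light chain, which has no oxidase activity of its own and helps form the mineral core. FTL RNA was 3122 and 3244 CPM in HCT116, 1846 and 1551 in HCT15, 5431 and 2725 in SW620, and 22995 and 9946 in 841CON. Both 841CON libraries lay above every cancer library, although they differed from each other more than those of HCT116 or HCT15 did. The change was -2.37 ± 0.52 in HCT116 (adjusted p = 0.00131), -3.28 ± 0.54 in HCT15 (adjusted p = 0.000135) and -2.01 ± 0.51 in SW620 (adjusted p = 0.00356). Without 841CON INPUT replicate 1 these changes were -1.61 in HCT116, -2.45 in HCT15 and -1.33 in SW620 (adjusted p = 0.0166, 0.0012 and 0.0462). The SW620 change was -2.60 without SW620 INPUT replicate 1, and its call was lost without SW620 INPUT replicate 2, at -1.60 (adjusted p = 0.0612), and in a fit of the SW620 and 841CON libraries alone (adjusted p = 0.107). The HCT15 call was lost in the corresponding fit of 2 lines (adjusted p = 0.0668), in which 0 of all genes passed for RNA. The HCT116 call was lost with close pairs summed, at -2.21. FTL footprints followed another order, with 618 and 599 CPM in HCT116, 211 and 99.4 in HCT15, 3926 and 1989 in SW620, and 574 and 536 in 841CON. Footprints fell in HCT15 by 1.84 ± 0.51 (adjusted p = 0.00592), rose in SW620 by 2.42 ± 0.52 (adjusted p = 0.00136), and differed in HCT116 by 0.13 ± 0.50 (adjusted p = 0.896). Without HCT15 RPF replicate 2 the HCT15 change was -1.39 and no longer passed (adjusted p = 0.0819), while without replicate 1 it was -2.48. The SW620 call was lost with close pairs summed (adjusted p = 0.0543).

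FTL TE, at the group means, was 0.191 in HCT116, 0.0914 in HCT15, 0.725 in SW620, against 0.0337 in 841CON. It rose by 2.51 ± 0.71 in HCT116 (adjusted p = 0.00766) and by 4.43 ± 0.73 in SW620 (adjusted p = 0.000714), while the change of 1.43 ± 0.70 in HCT15 did not pass (adjusted p = 0.173). The 3 cancer lines differed among themselves in FTL TE (edgeR's quasi-likelihood F test, adjusted p = 0.00607), a test that 2 of the 6 genes and 52.8% of all tested genes passed. For FTL it passed under all 20 alternatives tried, at adjusted p from 1.41e-05 to 0.0368. The RNA level enters the RNA and TE changes with opposite signs, so the high and uneven FTL RNA of 841CON bears on both. Without 841CON INPUT replicate 1, the library with more FTL RNA, the FTL TE changes were 1.75 in HCT116 (adjusted p = 0.0446) and 3.75 in SW620 (adjusted p = 0.00147). The SW620 change was 5.02 without SW620 INPUT replicate 1. The HCT116 call was lost with close pairs summed, at 2.27 (adjusted p = 0.167). Both ferritin genes have many processed pseudogenes, and 16.6% to 27.2% of reads aligned more than once in the 8 vector and COPS7B libraries that report this. How such reads were counted is not given in the sources used here, so ferritin levels are uncertain, and the part of multiple alignment in the ferritin results was not tested.

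The count of FTL over that of FTH1 within a library needs no scaling between libraries. A ratio of counts does not take gene length into account, so it is compared between libraries only. In RNA this ratio was 1.12 and 1.10 in HCT116, 0.389 and 0.313 in HCT15, 0.165 and 0.137 in SW620, and 6.61 and 3.38 in 841CON. These 4 lines did not overlap, and the ratio of 841CON was above all others. In footprints the ratio was 0.881 and 0.897 in HCT116, 0.401 and 0.0955 in HCT15, 0.820 and 0.871 in SW620, and 1.44 and 1.32 in 841CON. The light-to-heavy ratio of footprints thus lay below that of RNA in both 841CON libraries and above it in both SW620 libraries.

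**Figure D2:**
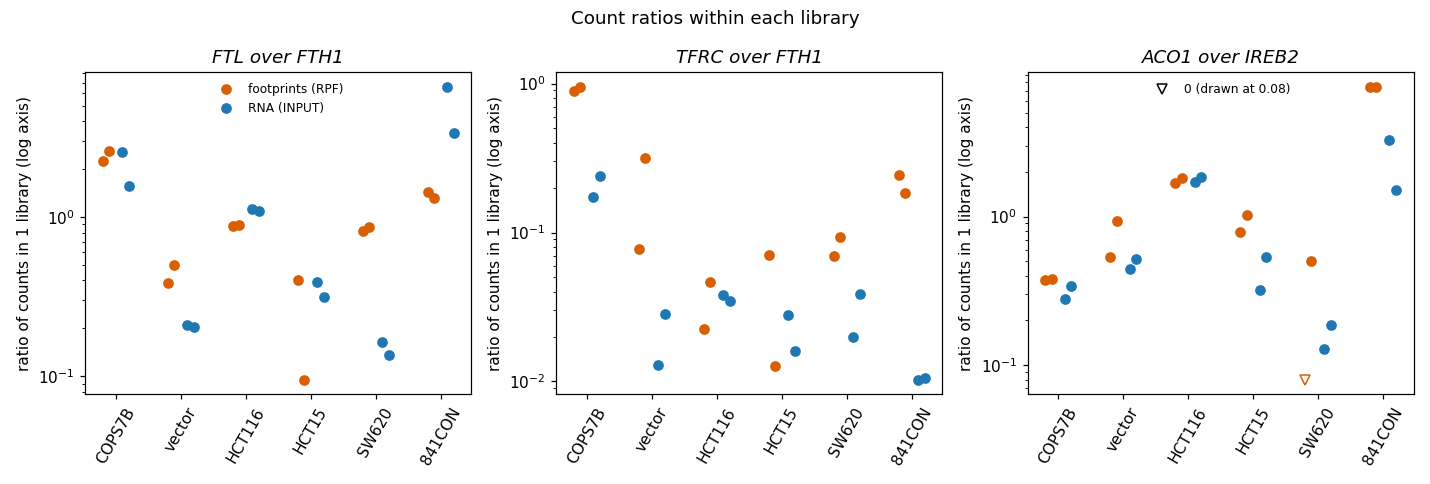
Ratios of raw counts of 2 genes within each library on a log axis, for RNA and footprints, 1 point per library. FTL over FTH1 in RNA runs from 0.137 in SW620 to 6.61 in 841CON. In footprints SW620 and 841CON lie between 0.820 and 1.44, and all libraries between 0.0955 in HCT15 and 2.62 in the COPS7B line. ACO1 over IREB2 in footprints is highest in 841CON.

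TFRC encodes the transferrin receptor, which carries transferrin-bound iron into cells. Its RNA was 107 and 103 CPM in HCT116, 132 and 78.8 in HCT15, 652 and 768 in SW620, and 35.8 and 31.4 in 841CON. Every cancer library lay above both 841CON libraries, and SW620 lay above all others. TFRC RNA rose by 1.65 ± 0.44 in HCT116 (adjusted p = 0.00579), by 1.67 ± 0.44 in HCT15 (adjusted p = 0.00616) and by 4.41 ± 0.48 in SW620 (adjusted p = 1.55e-06). Its footprints were 15.9 and 31.2 CPM in HCT116, 37.2 and 13.3 in HCT15, 334 and 214 in SW620, and 97.7 and 74.0 in 841CON. In HCT116 and parental HCT15 they lay below 841CON and in SW620 above it, without overlap. In the vector line, also of HCT15 cells, they were 103 and 175 CPM, above both 841CON libraries. Footprints fell by 1.87 ± 0.47 in HCT116 (adjusted p = 0.00203) and by 1.83 ± 0.45 in HCT15 (adjusted p = 0.0025), and rose by 1.68 ± 0.46 in SW620 (adjusted p = 0.00823). The HCT15 change was -2.69 without HCT15 RPF replicate 1 and -1.21 without replicate 2, where the call was lost (adjusted p = 0.0539). The SW620 call was lost without 841CON RPF replicate 2, without SW620 RPF replicate 1 and with close pairs summed (adjusted p = 0.0661, 0.12 and 0.102). The rise of TFRC RNA in HCT15 was lost in a fit of the HCT15 and 841CON libraries alone (adjusted p = 0.133). In that fit 0 of all genes passed for RNA.

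TFRC TE was 0.224 in HCT116, 0.239 in HCT15, 0.386 in SW620, against 2.56 in 841CON. It fell in each, with changes of -3.52 ± 0.65 in HCT116 (adjusted p = 0.000277), -3.5 ± 0.63 in HCT15 (adjusted p = 0.00136) and -2.74 ± 0.63 in SW620 (adjusted p = 0.00648). The RNA level enters the RNA and TE changes of TFRC with opposite signs, so they are not separate findings. In SW620 TE fell although footprints rose, by 1.68 beside 4.41 for RNA. The F test found no difference among the 3 cancer lines at the threshold (adjusted p = 0.45). The SW620 footprints of TFRC rested on 39 and 21 counts and those of HCT116 on 16 and 32, against 263 and 96 in 841CON. The HCT116 and SW620 calls of TFRC TE held under all 16 alternatives tried for each, and the HCT15 call under 15 of 16, the exception being a fit of the HCT15 and 841CON libraries alone, in which 0 of all genes passed for TE in HCT15. The HCT15 change in TE was -4.36 without HCT15 RPF replicate 1 and -2.88 without replicate 2. In the vector and COPS7B lines, also labelled as HCT15 cells, TFRC TE was 0.855 and 1.16, and their differences from 841CON were not tested.

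SLC11A2 encodes DMT1, which moves ferrous iron across the apical membrane of enterocytes and out of endosomes. Its RNA was 34.7 and 39.2 CPM in HCT116, 50.2 and 32.6 in HCT15, 75.5 and 84.2 in SW620, and 22.6 and 27.7 in 841CON. All cancer libraries lay above 841CON, but only the SW620 change passed, at 1.65 ± 0.58 (adjusted p = 0.0264). That call was lost without 841CON INPUT replicate 1, without either SW620 INPUT library and in a fit of SW620 and 841CON alone, at adjusted p from 0.0692 to 0.101. Footprints of SLC11A2 were 2.98 and 18.5 CPM in HCT116, 19.7 and 7.38 in HCT15, 103 and 61.2 in SW620, and 56.1 and 55.5 in 841CON. They fell in both HCT lines, with log2 changes of -2.37 ± 0.63 in HCT116 (adjusted p = 0.00332) and -2.10 ± 0.60 in HCT15 (adjusted p = 0.00714), with 3 and 19 counts in the HCT116 libraries and 12 and 6 in those of SW620. SLC11A2 TE fell by 2.91 ± 0.86 in HCT116 (adjusted p = 0.00955) and by 2.81 ± 0.83 in HCT15 (adjusted p = 0.0251), and in SW620 the change was -1.09 ± 0.86 (adjusted p = 0.395). The F test among the cancer lines did not pass (adjusted p = 0.145), but it did with DESeq2 (adjusted p = 0.0219), without HCT116 RPF replicate 2 (adjusted p = 0.0214) and without HCT15 RPF replicate 1 (adjusted p = 0.049). Without HCT116 RPF replicate 2 the HCT116 footprint and TE changes were -4.20 and -4.75, and without HCT15 RPF replicate 1 those of HCT15 were -2.91 and -3.62. The HCT116 calls were lost without HCT116 RPF replicate 1, at -1.59 and -2.13 (adjusted p = 0.0589 and 0.0528), and the TE call also with close pairs summed. The HCT15 calls were lost without HCT15 RPF replicate 2, at -1.50 and -2.21 (adjusted p = 0.0855 and 0.0843), and the TE call also without either 841CON footprint library, with close pairs summed and in a fit of HCT15 and 841CON alone.

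SLC40A1 encodes ferroportin, the exporter of iron from cells. It was barely detected. Its INPUT libraries held 1 and 0 counts in HCT116, 0 and 14 in HCT15, 19 and 10 in SW620, and 2 and 10 in 841CON, and it passed the filter on low counts through the groups with more. Its footprint libraries held no count in HCT116 or HCT15, 4 and 1 in SW620, and 4 and 7 in 841CON. With the empty group set to a floor of 3 counts, footprints were 5.05-fold lower in HCT15 than in 841CON and 1.87-fold lower in HCT116. The 11 counts of 841CON were taken as exact, so these folds are not full lower bounds. The fitted changes by edgeR, from groups without a count, were -5.86 ± 2.16 in HCT15 (adjusted p = 0.0317) and -5.86 ± 2.78 in HCT116 (adjusted p = 0.0793). The HCT15 call was lost without 841CON RPF replicate 2, without either HCT15 footprint library, with close pairs summed, and without the libraries labelled COPS7B, at adjusted p from 0.0561 to 0.179.

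**Figure D3:**
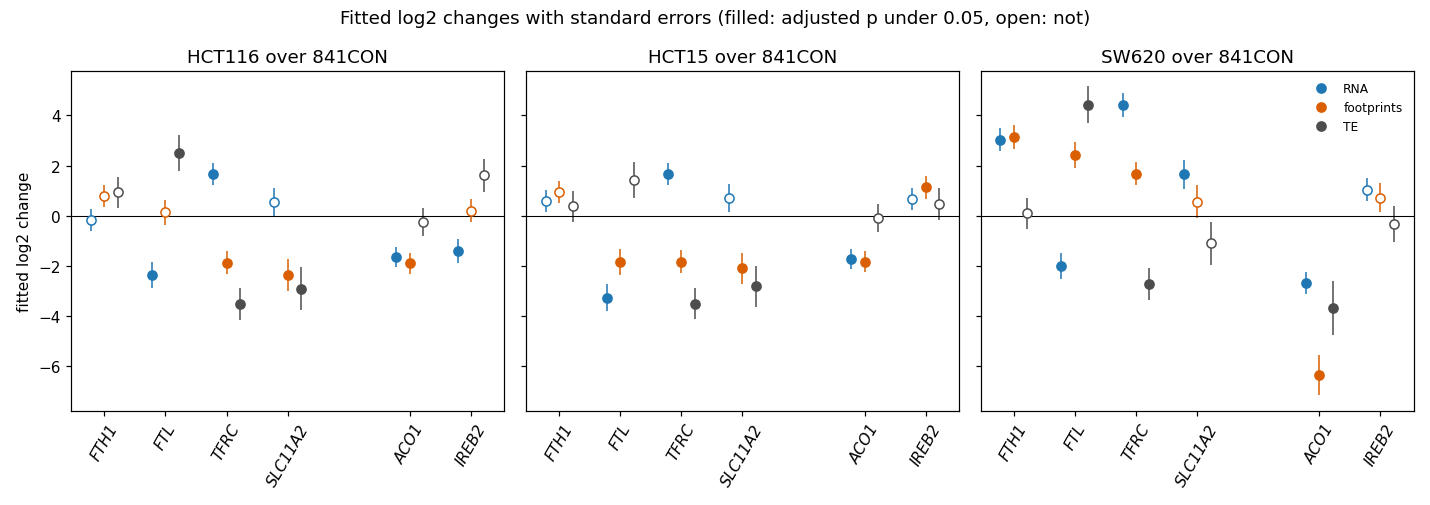
Fitted log2 changes of RNA, footprints and TE in HCT116, HCT15 and SW620 over 841CON for the 6 genes tested in all measures, with bars of 1 SE, filled where the adjusted p was under 0.05. TFRC shows RNA changes of 1.65, 1.67 and 4.41 above TE changes of -3.52, -3.5 and -2.74, and the footprint and TE points of ACO1 in SW620 rest on 1 footprint count.

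ACO1 encodes IRP1. Its RNA was 64.1 and 73.4 CPM in HCT116, 65.8 and 64.3 in HCT15, 26.2 and 40.8 in SW620, and 236 and 198 in 841CON. Every cancer library lay below both 841CON libraries. ACO1 RNA fell in each, with changes of -1.65 ± 0.41 in HCT116 (adjusted p = 0.00339), -1.73 ± 0.41 in HCT15 (adjusted p = 0.00271) and -2.67 ± 0.44 in SW620 (adjusted p = 8.7e-05). The HCT116 call was lost without HCT116 INPUT replicate 1, at -1.47, and with close pairs summed, at -1.50. The HCT15 call was lost in a fit of HCT15 and 841CON alone (adjusted p = 0.116), in which 0 of all genes passed for RNA. ACO1 footprints were 106 and 102 CPM in HCT116, 55.5 and 161 in HCT15, 0 and 10.2 in SW620, and 424 and 351 in 841CON. They fell by 1.89 ± 0.41 in HCT116 (adjusted p = 0.000621) and by 1.83 ± 0.41 in HCT15 (adjusted p = 0.00111), and the TE changes were -0.24 ± 0.57 and -0.09 ± 0.56 (adjusted p = 0.76 and 0.934). The HCT15 footprint libraries disagreed, and the footprint change was -1.27 without replicate 1 and -2.80 without replicate 2, both called. In SW620 only 1 footprint count of ACO1 was found in both libraries together, against 1596 in 841CON. After scaling, footprints were 86-fold lower in SW620 (exact 95% counting interval 15.4 to 3400, counting error only, edgeR adjusted p = 6.92e-06). The lower TE of ACO1 in SW620 (adjusted p = 0.0236) and its difference among the cancer lines (adjusted p = 0.0238) rest on that count. The TE call was lost without 841CON RPF replicate 1, SW620 INPUT replicate 2 or SW620 RPF replicate 1, with close pairs summed, in a fit of SW620 and 841CON alone and with DESeq2. The F test for ACO1 was lost without SW620 INPUT replicate 2 or SW620 RPF replicate 1, with close pairs summed, in a fit of the cancer lines alone and with DESeq2.

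IREB2 encodes IRP2. Its RNA was 37.4 and 39.7 CPM in HCT116, 204 and 120 in HCT15, 204 and 219 in SW620, and 71.6 and 131 in 841CON. It fell in HCT116 by 1.41 ± 0.47 (adjusted p = 0.0212), a call lost without 841CON INPUT replicate 2, without either HCT116 INPUT library, with close pairs summed and in a fit of HCT116 and 841CON alone. The changes in HCT15 and SW620 were 0.66 ± 0.45 and 1.05 ± 0.45 (adjusted p = 0.268 and 0.067). IREB2 footprints were 63.5 and 56.5 CPM in HCT116, 70.2 and 156 in HCT15, 145 and 20.4 in SW620, and 56.5 and 47.0 in 841CON. The SW620 libraries, with 17 and 2 counts, spanned those of HCT116 and 841CON. Footprints rose in HCT15 by 1.14 ± 0.46 (adjusted p = 0.046), a call lost without either 841CON footprint library, without HCT15 RPF replicate 2, with close pairs summed, in a fit of HCT15 and 841CON alone, with DESeq2 and without the libraries labelled COPS7B, at adjusted p from 0.0909 to 0.528. TE of IREB2 changed by 1.62 ± 0.66 in HCT116, 0.47 ± 0.64 in HCT15 and -0.32 ± 0.72 in SW620 (adjusted p = 0.0518, 0.66 and 0.799).

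The balance of the iron regulatory proteins was compared by the ratio of ACO1 to IREB2 counts within a library. In RNA it was 1.71 and 1.85 in HCT116, 0.322 and 0.537 in HCT15, 0.128 and 0.186 in SW620, and 3.29 and 1.51 in 841CON. In footprints it was 1.67 and 1.81 in HCT116, 0.790 and 1.03 in HCT15, 0 and 0.5 in SW620, and 7.50 and 7.48 in 841CON. In footprints both 841CON libraries lay above all cancer libraries, while in RNA the range of 841CON took in that of HCT116. The ratio of TFRC to FTH1 counts, an importer over a storage gene, was 0.0383 and 0.0348 in HCT116, 0.0279 and 0.0159 in HCT15, 0.0199 and 0.0385 in SW620, and 0.0103 and 0.0106 in 841CON for RNA. For footprints it was 0.0226 and 0.0466 in HCT116, 0.0707 and 0.0128 in HCT15, 0.0696 and 0.0938 in SW620, and 0.245 and 0.183 in 841CON. The 841CON libraries were thus the lowest of these lines in RNA and the highest in footprints. The same ratio in the vector line was 0.0129 and 0.0285 for RNA and 0.0771 and 0.315 for footprints. In the COPS7B line it was 0.174 and 0.24 for RNA and 0.897 and 0.955 for footprints, above 841CON in both assays.

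Each mRNA was also placed among the other mRNAs of the same cells, which needs no comparison between lines. The ranking took in the 9404 to 11022 genes whose INPUT counts averaged 10 or more in a line. There FTH1 TE exceeded that of 3.03% of genes in the COPS7B line, 1.81% in the vector line, 38.1% in HCT116, 7.29% in HCT15, 8.89% in SW620, against 12.2% in 841CON. FTL TE exceeded that of 4.03% of genes in the COPS7B line, 5.46% in the vector line, 35.9% in HCT116, 4.34% in HCT15, 51.8% in SW620, against 7.34% in 841CON. The ferritin mRNAs thus exceeded at most 12.2% of genes except for both in HCT116 and FTL in SW620. In HCT116, 18.9% of the ranked genes had no footprint count at all, which raises the place of every gene with counts, while this share was 5.31% in SW620, against 4.58% in 841CON. TFRC TE exceeded that of 67.2% of genes in the COPS7B line, 44.4% in the vector line, 37.5% in HCT116, 11.3% in HCT15, 26.1% in SW620, against 88.2% in 841CON. SLC11A2 ranged from 16.4% in HCT15 to 84.9% in 841CON, ACO1 from 10% in SW620 to 78.8% in 841CON, and IREB2 from 26.7% in SW620 to 75.8% in HCT116. The SW620 places of ACO1 and IREB2 rest on 1 and 19 footprint counts.

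**Figure D4:**
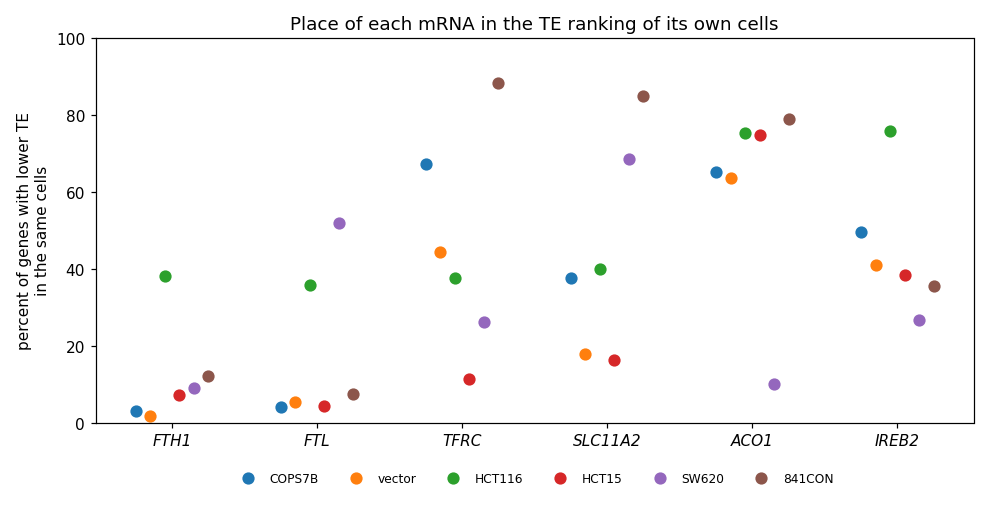
Share of genes with lower TE in the same cells, in percent, for 6 genes and 6 cell populations, 1 point per population from the means of its 2 libraries. The ferritin genes lie at or under 12.2% except in HCT116 and, for FTL, SW620, and TFRC and SLC11A2 lie highest in 841CON, at 88.2% and 84.9%. The SW620 points of ACO1 and IREB2 rest on 1 and 19 footprint counts.

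The effect of COPS7B overexpression is addressed by comparing the COPS7B line with the vector line. FTH1 was the only one of the 7 genes called, with 1 lower for RNA, where 17.5% of all genes were called (9.16% higher, 8.35% lower), and 1 lower for footprints, where 17.3% were (7.92% higher, 9.42% lower). FTH1 RNA was 591 and 418 CPM in the COPS7B line and 9490 and 7099 in the vector line, a change of -4.04 ± 0.49 (adjusted p = 1.17e-05). FTH1 footprints were 134 and 121 CPM in the COPS7B line and 1334 and 556 in the vector line, a change of -2.89 ± 0.47 (adjusted p = 0.000258) that was lost with close pairs summed (adjusted p = 0.0647). It was -2.04 without vector RPF replicate 1 (adjusted p = 0.0107). The COPS7B libraries had the lowest FTH1 RNA and footprints of all 6 populations. FTL RNA was 1510 and 655 CPM in the COPS7B line and 1984 and 1454 in the vector line, and the ranges overlapped (-0.67 ± 0.50, adjusted p = 0.455). The ratio of FTL to FTH1 counts in RNA was 2.55 and 1.57 in the COPS7B line and 0.209 and 0.205 in the vector line. In footprints it was 2.25 and 2.62 in the COPS7B line and 0.387 and 0.497 in the vector line, without overlap in either assay. These values stand beside the low correlation of the COPS7B INPUT libraries with both other HCT15 populations, and its part in the FTH1 difference was not tested.

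No TE change passed in this comparison, for these genes or any other. By edgeR 0 of 9542 genes were called, 0% of those tested, with 132 at an unadjusted p under 0.05 and none of them among the 6 tested here, and DESeq2 called 0. The 132 are a smaller share than a threshold of 0.05 gives when nothing changes. The empty list therefore does not show that TE stayed the same. The FTH1 TE change was 1.15 ± 0.62. TFRC RNA was 103 and 100 CPM in the COPS7B line and 123 and 202 in the vector line, and its footprints were 120 and 115 CPM in the COPS7B line and 103 and 175 in the vector line. ACO1 RNA was 41.5 and 46.5 CPM in the COPS7B line and 42.0 and 44.6 in the vector line. IREB2 RNA was 150 and 137 CPM in the COPS7B line and 94.6 and 85.5 in the vector line, without overlap but short of the threshold (0.67 ± 0.45, adjusted p = 0.398). SLC11A2 footprints were 22.1 and 37.1 CPM in the COPS7B line and 20.8 and 17.9 in the vector line, and SLC40A1 had 20 and 17 footprint counts in the COPS7B line and 3 and 0 in the vector line.

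The vector line and parental HCT15 both carry the genotype label WT. For RNA 0 of the 7 genes passed in edgeR or DESeq2, with none at an unadjusted p under 0.05, where 0.67% of all genes were called (0.603% higher, 0.067% lower). For footprints TFRC alone passed (1 of 7 genes, higher, where 10.5% of all genes were called, 7.43% higher and 3.04% lower). TFRC footprints were 103 and 175 CPM in the vector line and 37.2 and 13.3 in parental HCT15, a rise of 2.51 ± 0.46 (adjusted p = 0.00198) that was 3.38 without HCT15 RPF replicate 1 and was lost without replicate 2, at 1.89 (adjusted p = 0.0505), and in a fit of these 2 lines alone (adjusted p = 0.0969). TFRC RNA was 123 and 202 CPM in the vector line and 132 and 78.8 in parental HCT15, with overlapping ranges. For TE 0 of 6 genes passed in edgeR or DESeq2, where 0.175% of all genes were called (0.154% higher, 0.0205% lower), and TFRC, at 1.90 ± 0.61 (adjusted p = 0.208), was the 1 gene at an unadjusted p under 0.05. FTH1 RNA was 9490 and 7099 CPM in the vector line and 4742 and 4958 in parental HCT15, without overlap but short of the threshold (0.77 ± 0.44, adjusted p = 0.521).

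Patterns over the 24 libraries were compared after the mean of each assay was taken from log2 CPM. Of the pairs among the 7 genes, TFRC and SLC11A2 were most alike, at r = 0.78, and TFRC and ACO1 least alike, at r = -0.594, while FTH1 and FTL stood at 0.45. Out of 11937 genes each, the gene most alike was ENSG00000155876 for ACO1 (r = 0.955) and ENSG00000149311 for SLC11A2 (r = 0.87). It was ENSG00000110841 for FTH1 (r = 0.868), ENSG00000163527 for TFRC (r = 0.865) and ENSG00000107779 for SLC40A1 (r = 0.854). For FTL it was ENSG00000124496 (r = 0.834) and for IREB2 ENSG00000150401 (r = 0.823). These values describe 24 libraries that fall into 12 pairs, share depth and scaling within an assay, and are not independent points.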

How the data were processed

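Input RNA and ribosome footprints were sequenced in 24 libraries, 12 of each, and the authors deposited 1 table of raw read counts per gene for each library. Per the submitters' processing notes, cutadapt 3.5, STAR 2.7.9, HTSeq 2.0.2 and the build GRCh38 were named, with no roles or settings, so the handling of strand and of multiple alignments is not given here. Summary lines that name no gene were left out. The 11938 genes passing edgeR's expression filter (minimum count 10) in both assays were fitted once over all libraries in R 4.3.3 with edgeR 4.0.16's quasi-likelihood test, a mean per group (12 groups, 12 residual degrees of freedom) and trimmed-mean scaling within each assay. TE was the interaction of assay and line, tested where the mean INPUT count was at least 10 in both lines. P-values were adjusted by Benjamini-Hochberg over all genes tested, and code was tested on simulated data. DESeq2 1.42.0, other scalings, filters, sets of libraries and a replicate block were alternatives. Intervals cover counting error only, and floors only that of the group without counts. The genes were chosen, and the lists and tests set, with earlier results of these data known; named genes are all 7. Planned lists of iron pathway genes, cell type markers and ferritin pseudogenes, and the check of COPS7B, needed names for identifiers and were not analysed here.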

Additional observations from a re-analysis of the deposited data

Results flagged for a closer look

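TE of FTL differed among HCT116, HCT15 and SW620 in edgeR's quasi-likelihood F test (adjusted p = 0.00607), with TE at the group means of 0.191 in HCT116, 0.0914 in HCT15 and 0.725 in SW620. TE of ACO1 differed among the same lines (adjusted p = 0.0238), with 1.51 in HCT116, 1.66 in HCT15 and 0.152 in SW620, the last from 1 footprint count. The ACO1 result was lost with DESeq2, in a fit of the cancer lines alone and with close pairs summed. It was also lost without SW620 INPUT replicate 2 or SW620 RPF replicate 1. In this test 2 of the 6 genes passed, where 52.8% of all tested genes did.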

How the results depend on the processing

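Of 36 calls for single genes, which gave 474 recomputed values, 418 values kept the call, 56 lost it and 0 reversed. With close replicate pairs summed, the genes called fell to 1 for HCT116 RNA (4 before), 0 for COPS7B over vector footprints (1 before), 2 for SW620 footprints (4 before), 1 for TE among the cancer lines (2 before), 1 for HCT116 TE (3 before) and 1 for HCT15 TE (2 before). The number of all genes called fell in each of these comparisons as well. With only the libraries compared, 0 of the 7 genes were called for HCT15 RNA (0 of all genes, 4229 before). For SW620 RNA 3 were called (2734 of all genes, 5298 before). For footprints 2 were called in COPS7B over vector (4107, 2070 before) and 0 in vector over HCT15 (97, 1250 before). For TE 1 was called among the cancer lines (3948 of all genes, 4387 before). In HCT116 TE 5 were called (3842, 3877 before) and in HCT15 TE 0 (0 of all genes, 1476 before). For vector over HCT15 footprints the count was 2 with DESeq2, 2 with no filter on low counts and 2 with the replicate number as a block, against 1. Whether the replicate numbers pair the samples was not settled. The deviations of same-numbered libraries correlated at r of -0.167 to 0.119 between compared lines. Between INPUT and RPF of 1 line, r was -0.135 to 0.245. Replicates that differ little beyond sampling noise give values near 0 whether paired or not. The block lost 1 other call, IREB2 footprints in HCT15 (adjusted p = 0.0527).

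Leaving out 1 library at a time gave 2 to 4 genes for HCT116 RNA, 3 to 6 for SW620 RNA, 1 to 6 for HCT15 footprints, 0 to 3 for vector over HCT15 footprints, 1 to 3 for TE among the cancer lines, 1 to 2 for HCT15 TE and 0 to 1 for vector over HCT15 TE. HCT15 RPF replicate 2 ended 7 of the 9 calls refitted without it. Over all genes, the HCT15 TE count was 1476, against 223 with close pairs summed and 0 with only the libraries compared, and the SW620 TE count 1542, against 351 and 320. Without trimmed means the median TE change of all genes was -0.37 in HCT116, 0.14 in HCT15 and 0.03 in SW620, against -0.60, 0.29 and -0.31, and no call was lost. Leaving out the 4 libraries labelled COPS7B, chosen after seeing the data, lost 2 of 34 calls. SW620 footprints, at 84262 and 98043 counts, limit what can be seen there. The causes were not tested.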
